A study of Oryza sativa Japonica Group with 6 samples.

Results

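Genes of phytate synthesis and grain phosphorus were followed in rice endosperm, the storage tissue of the grain. The 6 genes were chosen by their feature IDs: RINO1 (OS03G0192700), LPA1 (OS02G0819400), MIK (OS03G0737701), IPK1 (OS04G0661200), MRP5 (OS03G0142800) and SPDT (OS06G0143700). All 6 were rows of the deposited table, which held 93655 features. RNA was sequenced from endosperm taken 7 days after pollination in 3 libraries labelled as the nf-yc11 mutant and 3 labelled wild type (WT). The series title names ZH11, a japonica rice cultivar, beside the mutant, which takes its name from a gene of the NF-Y complex, a regulator of transcription that binds CCAAT boxes. The labels give no allele, no line number and no count of plants behind a library. Since nothing states that the libraries were made from separate plants, the spread that p-values rest on may be technical.

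Phytate is inositol with a phosphate on every carbon, and cereal seeds keep most of their phosphorus in this form, largely in the aleurone and the embryo. Its synthesis begins when myo-inositol 3-phosphate synthase turns glucose 6-phosphate into inositol phosphate. Monophosphatases, kinases of the ITPK and IPK families and a last 2-kinase then free and refill the ring, and an ABC transporter carries the product into the storage vacuole. Rice mutants with little seed phytate have been traced to several of these loci, and the phosphorus that feeds the grain passes through transporters in the stem nodes.

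Values were FPKM, the reads of a gene scaled to its length and to the total of the library. The totals behind them, worked out from the values, were 15735968, 15953367 and 16989039 reads in nf-yc11 replicates 1 to 3 and 21984785, 15610548 and 14593215 reads in WT replicates 1 to 3. Libraries of a genotype resembled each other more (Pearson r of log2 values across genes, 0.981 to 0.983) than libraries of different genotypes (0.948 to 0.955). The gene paired with the name NF-YC11 (OS05G0304800) stood at 106 to 112 FPKM in the nf-yc11 libraries and at 124 to 130 FPKM in the WT libraries. It was thus lower in nf-yc11 (adjusted p = 0.0037, limma). Its transcript was still present in the libraries labelled as mutant, and a mutation can leave a transcript in place. Starchy endosperm markers were abundant in every library, with a summed level of 36349 to 38384 FPKM in nf-yc11 and 47211 to 48483 FPKM in WT over 7 genes. Most of that sum lay in RP10 (mean 20744 FPKM in nf-yc11, 28327 FPKM in WT) and GluA2 (10866 FPKM in nf-yc11, 12600 FPKM in WT). Of the 7 genes, 5 were lower, 1 was higher and 1 did not pass. Across the 22093 features that averaged 1 FPKM or more, 6586 were higher and 4256 lower in nf-yc11 (adjusted p under 0.05, limma). That split came to 5403 to 5522 higher and 5211 to 5297 lower once libraries were scaled by size factors, by TMM or by quantiles. Leaving the 100 most abundant features out of the total gave 5015 higher and 5732 lower.

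The 3 members with substantial expression, RINO1, IPK1 and MRP5, were all lower in the nf-yc11 libraries. RINO1 was 2.1-fold lower, MRP5 1.59-fold lower and IPK1 1.38-fold lower, as ratios of mean FPKM. Thus the gene that opens the route, the kinase that closes it and the transporter that stores its product all fell. The genes of the steps between did not all fall, as set out below. All 3 members tested were called lower, where 19.3% of all tested features were called lower and 49.1% were called in either direction. The share called lower rose under the other scalings given above. The members were chosen with earlier results of these data known, so the comparison with all features is a description and not a test. The median log2 change of the 3 was -0.65, against 0.06 for all tested features. LPA1, MIK and SPDT were below the mean of 1 FPKM needed for the test, so 3 of the 6 members have no test.

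RINO1 encodes myo-inositol 3-phosphate synthase, the first enzyme of the route and the source of new inositol in the seed. It stood at 45.1, 37.8 and 41.8 FPKM in nf-yc11 replicates 1 to 3, against 87.4, 86.4 and 88.0 FPKM in WT replicates 1 to 3. Each nf-yc11 library lay below each WT library by a wide margin, and the nf-yc11 libraries were the more scattered. The log2 change of FPKM + 1 was -1.05 ± 0.06 (SE, 95% interval -1.20 to -0.91, adjusted p = 3.87e-05, limma). Of all tested features, 2.41% had a lower change than RINO1. These values rest on 1155 to 1360 reads in the nf-yc11 libraries and 2458 to 3674 reads in the WT libraries. Counting error alone would give a coefficient of variation of 2.78% in nf-yc11 and 1.89% in WT, and the observed values were 8.71% and 0.972%. The spread of RINO1 between nf-yc11 libraries was thus larger than counting error, whereas that between WT libraries was not.

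IPK1 encodes inositol pentakisphosphate 2-kinase, which adds the last phosphate. It was at 42.6, 40.2 and 41.7 FPKM in the nf-yc11 libraries and at 58.1, 56.2 and 58.0 FPKM in the WT libraries. The genotypes did not overlap, and the libraries within each lay close together. The log2 change was -0.46 ± 0.04 (SE, 95% interval -0.55 to -0.37, adjusted p = 0.000138, limma), with 1202 to 1328 reads in nf-yc11 libraries and 1585 to 2395 in WT libraries. A change lower than that of IPK1 was seen in 10.4% of tested features.

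MRP5, also named ABCC13 and LPA2, encodes the ABC transporter that takes phytate into the vacuole. Its levels were 36.0, 33.5 and 34.3 FPKM in the nf-yc11 libraries and 53.8, 54.8 and 55.9 FPKM in the WT libraries. Here too every nf-yc11 library was below every WT library. Its log2 change was -0.65 ± 0.04 (SE, 95% interval -0.75 to -0.55, adjusted p = 5.06e-05, limma). MRP5 had the most reads of the members, 1950 to 2126 in nf-yc11 libraries and 2979 to 4319 in WT libraries, and 6.18% of tested features had a lower change. For these 3 genes the genotypes did not overlap with nf-yc11 lower, which held for 24.4% of all tested features (59.7% did not overlap in either direction).

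**Figure D1:**
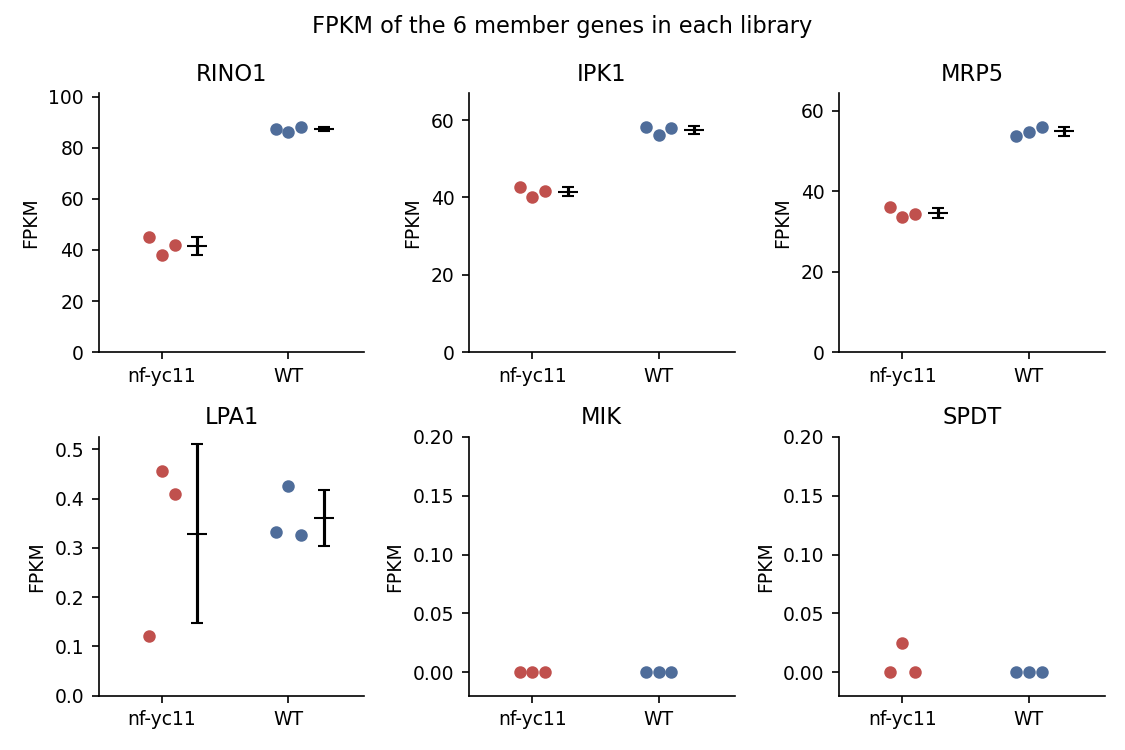
FPKM (vertical axis, linear) of the 6 member genes in the 3 nf-yc11 libraries (red) and the 3 WT libraries (blue); points are libraries, and the black mark is the mean with its SD for the 4 genes whose values rise above 0.1 FPKM. RINO1, IPK1 and MRP5 have all nf-yc11 points below all WT points, LPA1 overlaps at under 0.5 FPKM, and MIK and SPDT lie at or next to 0.

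LPA1 encodes a protein with a 2-phosphoglycerate kinase-like domain, found through the low phytic acid 1 mutants of rice. It was barely detected, at 0.121, 0.457 and 0.41 FPKM in the nf-yc11 libraries and 0.331, 0.426 and 0.326 FPKM in the WT libraries. The lowest and the highest of the 6 values were both from nf-yc11 libraries, so the genotypes overlapped. In all, 51 reads lay on the gene in nf-yc11 and 59 in WT, which gives 0.332 FPKM (95% Poisson interval 0.247 to 0.436) and 0.358 FPKM (0.273 to 0.462). These intervals cover counting error only and overlap, and no difference was detected. With no filter on low values the fit gave a log2 change of -0.04 (adjusted p = 0.815, limma).

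MIK, the myo-inositol kinase at the LPA3 locus, was listed at 0 in each of the 6 libraries. On a gene of 1500 bases, taken as an example since the values do not give its length, 3 reads would have been 0.118 to 0.127 FPKM in nf-yc11 and 0.091 to 0.137 FPKM in WT. The adjoining ID OS03G0737700, which neither the table nor the gene table used here pairs with a name, did carry reads. It stood at 0.831, 1.68 and 1.46 FPKM in nf-yc11 and 1.31, 0.964 and 0.852 FPKM in WT, and did not pass (log2 change 0.18 ± 0.18, SE, adjusted p = 0.457, limma). How reads were divided between these IDs was not analysed here, so no level of the kinase gene is drawn from the 0.

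SPDT encodes a phosphorus transporter of the SULTR family, known from rice nodes, where it directs phosphorus to the grain. It had 1 read in all, in nf-yc11 replicate 2 (0.0251 FPKM), and was listed at 0 in the other 5 libraries. Pooled over a genotype, 3 reads would have been 0.0247 FPKM in nf-yc11 and 0.023 FPKM in WT, so both genotypes were under that floor and no fold is given.

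By level per length RINO1, IPK1 and MRP5 lay at 33.5 to 88.0 FPKM and LPA1 and SPDT below 0.5 FPKM, with MIK left out of the order. In the nf-yc11 libraries RINO1 (41.6 ± 3.62 FPKM, SD, n = 3) and IPK1 (41.5 ± 1.22 FPKM) could not be told apart, and MRP5 was below both at 34.6 ± 1.32 FPKM. In the WT libraries RINO1 was clearly first at 87.3 ± 0.848 FPKM. IPK1 at 57.4 ± 1.05 FPKM and MRP5 at 54.8 ± 1.05 FPKM followed, with ranges that nearly met. The order in WT was thus RINO1, IPK1, MRP5, and in nf-yc11 the first place was shared.

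**Figure D2:**
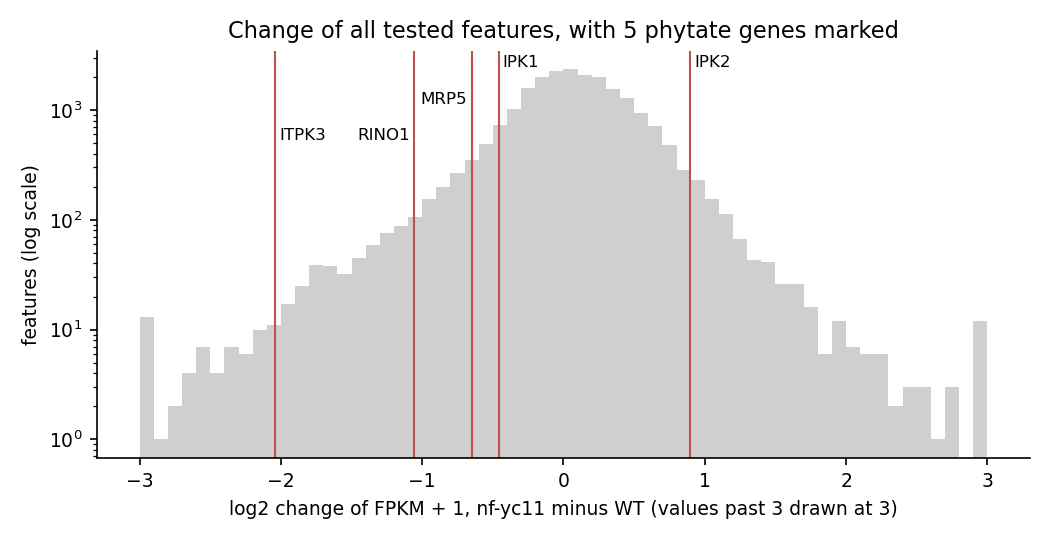
Histogram of the log2 change of FPKM + 1 (horizontal axis, nf-yc11 minus WT) over all 22093 tested features, with the number of features on a log axis; lines mark 5 genes of the phytate route. RINO1, MRP5 and IPK1 lie left of the bulk at -1.05, -0.65 and -0.46, ITPK3 lies farther left at -2.04, and IPK2 lies to the right at 0.90.

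The rest of the phytate route was read from a list of 11 other genes. Of the 9 with enough expression to test, 5 were lower, 1 was higher and 3 did not pass. Their median log2 change was -0.21. The largest change was that of ITPK3, an inositol tris/tetrakisphosphate kinase, which was 4.28-fold lower. Against it stood IPK2, the inositol polyphosphate multikinase, which was 1.88-fold higher. Joined with RINO1, LPA1, MIK, IPK1 and MRP5, the route held 16 genes, of which 12 were tested, 8 were lower, 1 was higher and 3 did not pass (median log2 change -0.30). Among all tested features 19.3% were called lower and 49.1% in either direction.

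ITPK3 was at 17.8, 17.8 and 18.2 FPKM in the nf-yc11 libraries and at 77.0, 76.1 and 77.3 FPKM in the WT libraries. No value came near those of the other genotype. Its log2 change was -2.04 ± 0.03 (SE, adjusted p = 8.36e-07, limma), and 0.263% of tested features had a lower one. ITPK1 fell to 38.4 ± 1.34 FPKM in nf-yc11, against 60.4 ± 0.914 FPKM in WT (SD, n = 3 each), a log2 change of -0.64 (adjusted p = 4.22e-05, limma). ITPK6 averaged 26.1 ± 0.174 FPKM in nf-yc11 and 34.2 ± 0.898 FPKM in WT (log2 change -0.38, adjusted p = 0.000346, limma). The smallest called fall in the family was that of ITPK4, with 14.5 ± 0.833 FPKM in nf-yc11 and 16.9 ± 0.742 FPKM in WT (log2 change -0.21, adjusted p = 0.0237, limma). The ITPK4 call ended when nf-yc11 replicate 2 (adjusted p = 0.0648, limma) or 3 (0.0675) was left out, and likewise for WT replicate 1 (0.0791) or 2 (0.0512). ITPK2, the least expressed of those detected, averaged 2.29 FPKM in nf-yc11 and 2.57 FPKM in WT and did not pass (adjusted p = 0.462, limma). ITPK5 was listed at 0 in every library.

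Summed over the 6 ITPK genes, the level was 99.2 ± 1.82 FPKM in nf-yc11 and 191 ± 1.67 FPKM in WT (SD, n = 3), 1.92-fold lower. ITPK3 supplied 18.1% ± 0.441 of it in nf-yc11 and 40.2% ± 0.246 in WT, and ITPK1 supplied 38.7% ± 0.769 in nf-yc11 and 31.6% ± 0.316 in WT. The leading gene of the family was therefore ITPK1 in the nf-yc11 libraries and ITPK3 in the WT libraries.

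**Figure D3:**
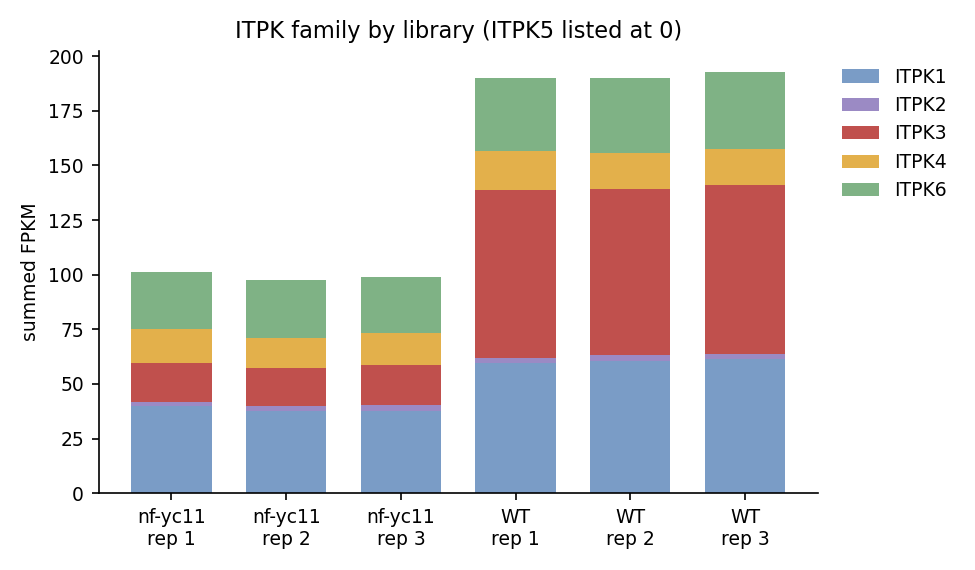
Stacked bars of the FPKM of the ITPK genes in each library, nf-yc11 replicates on the left and WT replicates on the right. The nf-yc11 bars reach 97.5 to 101 FPKM and the WT bars 190 to 193 FPKM, and the red ITPK3 segment differs most between the genotypes.

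IPK2 phosphorylates intermediates between inositol trisphosphate and pentakisphosphate. Its levels were 105, 93.5 and 93.2 FPKM in the nf-yc11 libraries and 49.7, 51.2 and 54.0 FPKM in the WT libraries. It was the one gene of the route called higher (log2 change 0.90 ± 0.06, SE, adjusted p = 4.88e-05, limma), where 29.8% of all tested features were called higher. In nf-yc11 it was the most abundant of the 16 route genes per length, a place held in WT by RINO1.

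Inositol monophosphatases free the inositol from its phosphate. IMP2 averaged 10.7 ± 0.135 FPKM in nf-yc11 and 12.6 ± 0.566 FPKM in WT (log2 change -0.22, adjusted p = 0.0129, limma). IMP1 averaged 19.5 ± 0.895 FPKM in nf-yc11 and 20.8 ± 0.381 FPKM in WT and did not pass (log2 change -0.09, adjusted p = 0.163, limma), though it was called lower under size factors, TMM factors, quantile normalization and the total without the 100 most abundant features (adjusted p 0.0154 to 0.0381). SULTR3;3, a transporter whose loss lowers seed phytate in rice and barley, averaged 10.3 ± 1.28 FPKM in nf-yc11 and 8.87 ± 0.432 FPKM in WT. Its log2 change of 0.19 (95% interval -0.02 to 0.41) did not pass (adjusted p = 0.123, limma), except without nf-yc11 replicate 3 (0.029). The second synthase gene, RINO2, lay at 0 to 0.0608 FPKM in nf-yc11 and 0 to 0.0332 FPKM in WT, so nearly all synthase reads came from RINO1 in both genotypes.

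**Figure D4:**
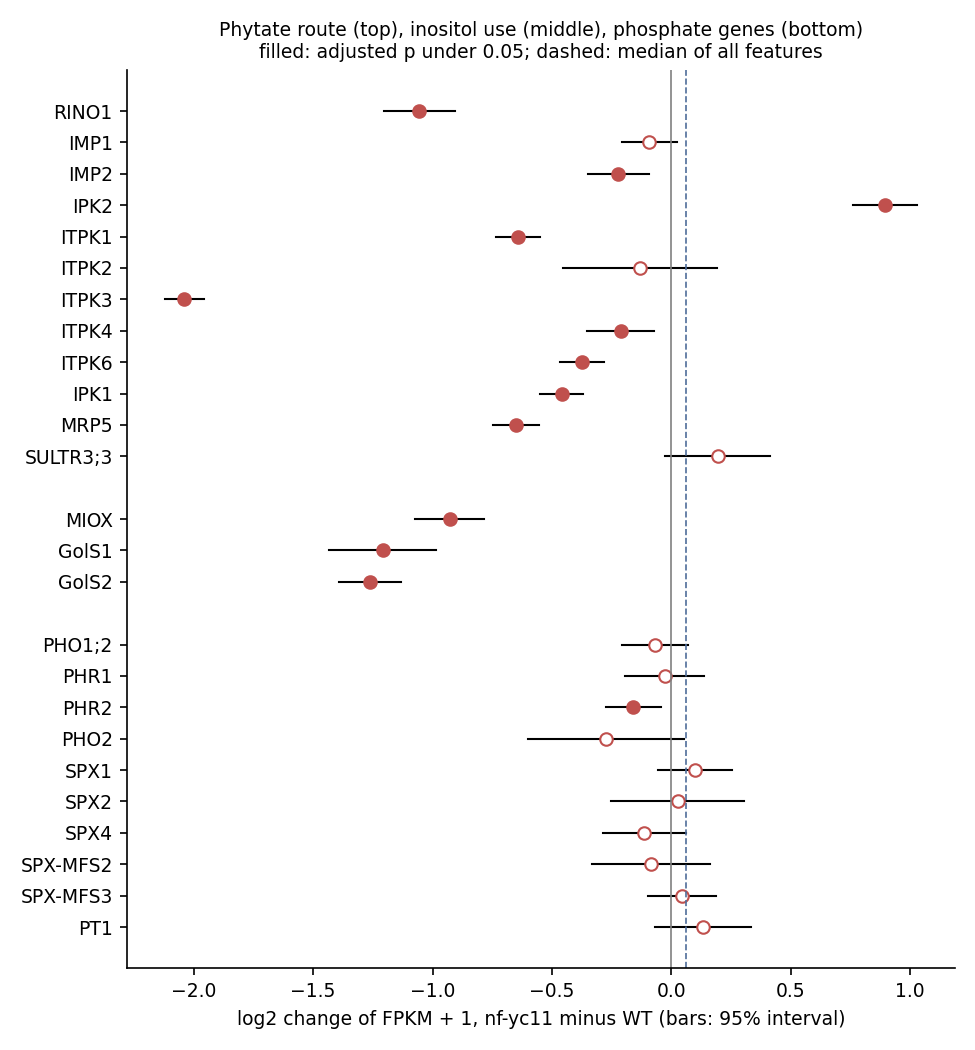
Log2 change of FPKM + 1 (horizontal axis, nf-yc11 minus WT) with its 95% interval for the tested genes of the phytate route, of other inositol uses and of phosphate transport and sensing; filled points passed an adjusted p of 0.05, and the dashed line is the median of all tested features. The route runs from ITPK3 at -2.04 to IPK2 at 0.90, the inositol-use genes lie at -0.93 to -1.26, and the phosphate genes stay between -0.27 and 0.13.

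How the falls compare between genes was read from ratios within a library, which a scaling factor between libraries leaves as they are. The ratio of RINO1 to IPK1 was 1.058, 0.9413 and 1.003 in nf-yc11 libraries and 1.503, 1.536 and 1.519 in WT libraries. The ratio of RINO1 to MRP5 was 1.20 ± 0.0624 in nf-yc11 and 1.59 ± 0.0282 in WT, and that of MRP5 to IPK1 0.833 ± 0.0122 in nf-yc11 and 0.955 ± 0.0262 in WT (SD, n = 3). RINO1 was thus lower relative to both other members in each nf-yc11 library, and MRP5 lower relative to IPK1. The ratio of IPK2 to IPK1 was 2.34 ± 0.11 in nf-yc11 and 0.9 ± 0.0392 in WT, and that of ITPK3 to ITPK1 was 0.468 ± 0.0205 in nf-yc11 and 1.27 ± 0.0206 in WT. None of the 5 ratios overlapped between genotypes. The pairs were not set beforehand and include IPK2 and ITPK3, so this separation largely restates the changes given above. Of single tested features 59.7% did not overlap in either direction, and no such share was worked out for ratios. For each ratio the two-sided exact permutation test gave p = 0.1 (0.1 after Benjamini-Hochberg adjustment over the 5), the smallest that 3 against 3 libraries allow. The test could not have passed at 0.05, so nothing is concluded from it.

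**Figure D5:**
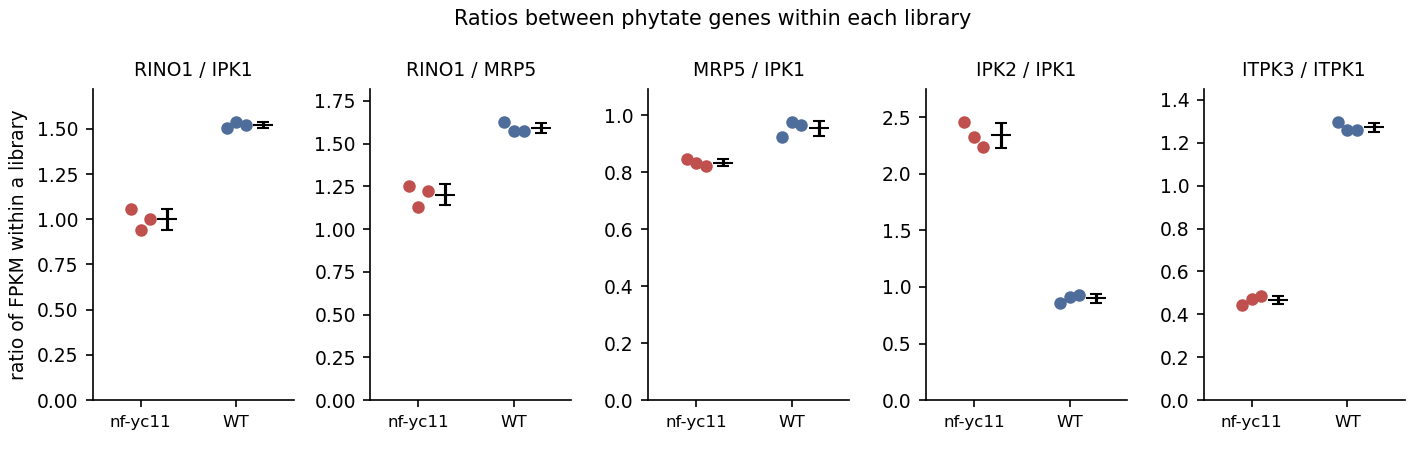
Ratio of the FPKM of 2 genes within each library (vertical axis, linear from 0) for 5 gene pairs, nf-yc11 in red and WT in blue; points are libraries and the black mark is the mean with its SD. RINO1 over IPK1 lies near 1 in nf-yc11 and near 1.52 in WT, and IPK2 over IPK1 is the one ratio that is higher in nf-yc11.

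Inositol also serves routes other than phytate. MIOX, which oxidises it towards cell wall sugars, averaged 13.9 ± 0.99 FPKM in nf-yc11 and 27.2 ± 0.869 FPKM in WT (log2 change -0.93, adjusted p = 5.81e-05, limma). The galactinol synthases, which use it to make the donor of raffinose sugars, were lower as well. GolS2 was at 17.8 ± 0.761 FPKM in nf-yc11 and 44.0 ± 2.32 FPKM in WT (adjusted p = 1.3e-05, limma), and GolS1 at 1.86 ± 0.191 FPKM in nf-yc11 and 5.6 ± 0.475 FPKM in WT (adjusted p = 0.000115, limma). All 3 tested genes of this 4-gene list were called lower, beside 19.3% of all tested features, and their median log2 change was -1.21. That median is the value of GolS1, a low gene, whose log2 change was -1.55 with 0.1 in place of 1 added to FPKM. As ratios of mean FPKM, GolS1 was 3.02-fold lower and GolS2 2.48-fold lower. The symbols of these 3 genes were not in the gene table used to check names.

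The likeness of profiles was measured as the distance between log2(FPKM + 1) values centred on their mean over the 6 libraries, among 22 tested genes of the inositol and phosphate lists. With libraries close within each genotype, such distances mainly restate how far the log2 changes differ, and no test was run on them. MRP5 was nearest to ITPK1, at a distance of 0.0274, where its median distance to the 22 genes was 0.725. IPK1 was nearest to ITPK6 (0.136) and then ITPK1 (0.232). For RINO1 the nearest were MIOX (0.241) and GolS2 (0.285). IPK2 was the farthest from RINO1 and from MRP5, and ITPK3 the farthest from IPK1.

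Few genes of phosphate transport and sensing passed the test. Of 19 in the list, 9 were below 1 FPKM, among them PHO1;1, PHO1;3 and PT8, and of the 10 tested 1 was lower and 9 did not pass. By comparison, 19.3% of all tested features were called lower and 49.1% in either direction. The median log2 change of the 10 was -0.05. Among the 9 not tested, PT2 had nf-yc11 values (0.105 to 0.172 FPKM) above all WT values (0 to 0.025 FPKM). PHR3 and SPX-MFS1 had all nf-yc11 values below all WT values. PT2 rested on 3 to 5 reads per nf-yc11 library and 0 to 1 per WT library. The one gene called was PHR2, the main MYB factor of the phosphate starvation response in rice and the most abundant of the list. It stood at 34.3, 35.2 and 35.1 FPKM in nf-yc11 and 39.0, 37.0 and 41.3 FPKM in WT (log2 change -0.16 ± 0.05, SE, adjusted p = 0.0321, limma). That call ended when nf-yc11 replicate 1 (adjusted p = 0.0829, limma), 2 (0.0578) or 3 (0.0735), or WT replicate 1 (0.079) or 3 (0.0859), was left out, without the variance trend (0.0636) and with the replicate number as a block (0.053).

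PHO1;2, a phosphate exporter that returns phosphate from the filling grain, averaged 7.2 ± 0.22 FPKM in nf-yc11 and 7.6 ± 0.24 FPKM in WT (95% interval of the log2 change -0.21 to 0.07, adjusted p = 0.368, limma). PHO2, a ubiquitin-conjugating enzyme of phosphate homeostasis, averaged 1.64 FPKM in nf-yc11 and 2.2 FPKM in WT (adjusted p = 0.142, limma), but was called lower with voom on the recovered reads (log2 change -0.41, adjusted p = 0.0281). The transporter PT1 averaged 5.04 FPKM in nf-yc11 and 4.52 FPKM in WT (adjusted p = 0.236, limma), and the sensor SPX4 18.6 FPKM in nf-yc11 and 20.2 FPKM in WT (adjusted p = 0.25, limma). SPX4 was called lower when the 100 most abundant features were left out of the total (adjusted p = 0.0499, limma). A p that misses the threshold does not show equal levels, and for PHO2 the 95% interval of the log2 change ran from -0.60 to 0.05.

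Markers of seed parts were measured beside these genes. For scale, 19.3% of all tested features were called lower, 29.8% higher and 49.1% in either direction. Of 7 embryo and aleurone markers, 6 were tested, of which 4 were lower, 1 was higher and 1 did not pass (median log2 change -0.12). The 4 lower calls became 2, RAB21 and LEA3, without nf-yc11 replicate 3 or without WT replicate 1, 2 or 3, where EMP1 (adjusted p 0.0639 to 0.0818, limma) and VP1 (0.0542 to 0.0693) did not pass. EMP1 also did not pass without nf-yc11 replicate 1 (adjusted p = 0.0608, limma) or without the variance trend (0.128). The 1 higher call was the oleosin OLE16 (log2 change 0.35, adjusted p = 0.000298, limma), and it held under every alternative. The summed level of the 7 markers was 5431 to 5828 FPKM in nf-yc11 and 4811 to 5161 FPKM in WT, carried by the oleosins, and the embryo axis gene OSH1 was at 0.735 to 1.33 FPKM in nf-yc11 and 0.654 to 1.1 FPKM in WT. None of the 7 was at 0 in all libraries. Of 7 starchy endosperm markers, 5 were lower, 1 was higher and 1 did not pass (median log2 change -0.45). The largest fall on that list was that of NF-YB1 (log2 change -0.87). Whether each listed gene marks only the starchy endosperm was not tested, so the medians of the marker lists are not set against each other. Of 2 markers of the green pericarp, 1 was lower and 1 did not pass, with summed levels of 1356 to 1497 FPKM in nf-yc11 and 1538 to 1555 FPKM in WT. The part of these shifts in the phytate genes was not tested, and in bulk tissue fewer cells of a type and less RNA per cell cannot be told apart.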

How the data were processed

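The FPKM values were computed and deposited by the authors in 1 table with 6 library columns. TRIzol was used to extract the RNA and standard Illumina methods to make the libraries, per the labels' protocols. The tools CASAVA (1.7), HISAT2 (2.0.5) and DESeq are listed in the submitters' processing notes, without saying what each did. Which counter, annotation and genome build were used is not given in the sources used here. Coordinates and sequences are therefore left out. Paralogs could share reads, depending on the counting.

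Whole reads were recovered for 36189 of 36189 features above 0, as the smallest whole numbers that fit all 6 values within 1e-07 of a whole number, so a common factor is possible. They summed to 99.6% to 99.7% of the totals. Intervals from these reads reflect sampling of reads alone.

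The genotypes were compared in limma 3.58.1 (R 4.3.3), trend on, using log2(FPKM + 1) of every feature averaging 1 FPKM or more and Benjamini-Hochberg adjustment at 0.05. The script was checked on simulated data. The pseudocount understates changes of low genes. Lists are described by counts and medians, and their genes were not tested as sets. The members and lists were chosen with earlier results of these data known.

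Symbols were paired with IDs from general knowledge. Of 40 symbols, 25 were found at a matching place in a RefSeq gene table of assembly ASM3414082v1 (same chromosome, order within 3%), including those of 5 members. SPX3 and PT8 were out of place and 13, SPDT among them, were not matched. All members and phytate genes are named, and from the inositol-use and phosphate lists the most abundant and up to 4 with the smallest p. Marker lists are given by counts and summed levels. PHO1;2, OSH1, EMP1, VP1, RAB21, LEA3, OLE16, PHO1;1, PHO1;3, PT8 and the ID next to MIK were named after their values were seen. So were PT2, PHR3, SPX-MFS1, RP10, GluA2 and NF-YB1. The gene pairs of the ratios were not set beforehand. Alternatives covered the pseudocount (0.1), filters (none, 5 FPKM), scaling, the variance trend, a replicate block, voom on recovered reads and leaving out each library. Python 3.11.15, pandas 2.3.3, numpy 2.4.6 and matplotlib 3.10.9 were used.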

Additional observations from a re-analysis of the deposited data

How the results depend on the processing

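RINO1, IPK1 and MRP5 kept their direction and their call under all 16 alternatives run for each, with log2 changes of -1.18 to -0.99, -0.58 to -0.44 and -0.75 to -0.63 and adjusted p of at most 0.00139 (limma). The count of changed features ran from 8320 to 11696, against 10842 of 22093 tested. The 8320 were of 13548 features averaging at least 5 FPKM, and the 11696 of 22093 with voom. As the number tested changed with the filter, the counts do not rank the settings by share. The phytate list had 4 to 7 called genes, against 6, the 4 being all that were called among symbols found in place, and inositol-use genes 2 or 3, against 3. The phosphate list, with 1 call, had 0 without the variance trend and 2 with no filter on low values, 1 lower and 1 higher. It had 2 with voom, 2 with the total without the 100 most abundant features, and 0 to 1 when 1 library was left out. The difference of LPA1, not tested, was -0.21 with a pseudocount of 0.1, against -0.04, and -0.1137 to 0.0754 when 1 library was left out, being above 0 without nf-yc11 replicate 1. The cause of these shifts was not tested. MIK and SPDT gave no value to follow, and LPA1 was fitted only with no filter. The 100-feature total and the symbol restriction were chosen after seeing the data.

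Over features, the deviations of libraries that share a replicate number had correlations of -0.05, 0.004 and -0.048, where other pairs had -0.057 to 0.109, so the numbers were not taken as pairs. With the replicate block 9948 features were called, 6 phytate genes and 0 phosphate genes. LPA1 rested on 51 reads in nf-yc11 and 59 in WT, and SPDT on 1 and 0.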
